A study of Homo sapiens with 6 samples.

Results

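The Krüppel-like factors (KLFs) described here are 10 genes, *KLF2*, *KLF3*, *KLF4*, *KLF5*, *KLF6*, *KLF7*, *KLF9*, *KLF10*, *KLF11*, and *KLF13*, taken by gene symbol from a table of raw read counts for 60623 genes. Each symbol had a single row. RNA-Seq was performed in TC28a2 cells, an immortalized human chondrocyte line, after 24 hours with 2 μM mocetinostat or with its solvent DMSO, and each condition had 3 samples. Mocetinostat is a benzamide inhibitor of class I histone deacetylases (HDACs), the enzymes that remove acetyl groups from histones. The study had looked for compounds that raise *KLF4* in cells of cartilage origin, and the comparison described here asks how the rest of that gene family behaved after the same treatment. All samples came from a single cell line, and the study describes the 3 samples of each condition as coming from independent experiments, which the sample labels do not state. Total counts were 11031132, 4873426, and 6926619 with DMSO (replicates 1 to 3) and 5089542, 1619344, and 2417199 with mocetinostat. Depth thus varied within each condition and was mostly lower with mocetinostat. The 2 ranges overlapped only because mocetinostat replicate 1 exceeded DMSO replicate 2, so that depth went partly with treatment.

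KLF proteins are transcription factors that bind GC-rich and CACCC-containing DNA through a set of zinc fingers at their C-terminus, a domain they share with the SP family. Their N-termini differ and recruit different partners, and the family is commonly divided on that basis into members that bind the corepressor CtBP, members that act mainly as activators and bind histone acetyltransferases, and members that bind the SIN3A corepressor complex, which contains HDACs. In joint tissues KLF2 and KLF4 are best known as regulators of cartilage and tendon genes, and in other tissues the family governs endothelial quiescence, epithelial renewal, and responses to hormones and growth factors.

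The chondrocyte markers *COL2A1* and *ACAN* were low in DMSO-treated cells, at 2.20 ± 0.684 and 4.72 ± 0.690 CPM (read counts normalized to library size with TMM factors, mean ± SD, n = 3), whereas *SOX9* was at 106 ± 13.6 CPM. *COL9A1* had at most 6 counts and *COL11A1* at most 13 in any sample, so that part of the chondrocyte program was close to absent. The 9 chondrocyte markers summed to between 116 and 141 CPM with DMSO and to between 258 and 299 CPM with mocetinostat, and 5 of the 7 that could be tested were called higher, beside 20.2% of all genes. Of these 5, *COMP* passed the filter on low counts only through its mocetinostat samples. *COL2A1* and *MATN3* fell short of the minimum of that filter in part of the DMSO samples. Markers of other cell types also moved with treatment. The 3 epithelial markers summed to between 0.208 and 0.885 CPM with DMSO and to between 22.8 and 34.6 CPM with mocetinostat, with both of the 2 tested called higher, while *KRT19* had at most 6 counts. The 2 tested, *EPCAM* and *CDH1*, passed the filter on low counts only through their mocetinostat samples. The 4 endothelial markers summed to between 5.52 and 7.496 CPM and between 18.6 and 24.1 CPM, with 2 of the 3 tested called higher, and *CDH5* did not pass the test (log2 fold change 0.12, adjusted p = 0.834). The 2 called, *PECAM1* and *VWF*, also passed the filter only through their mocetinostat samples. The 3 hematopoietic markers summed to between 1.33 and 2.49 CPM and between 4.76 and 11.2 CPM, through *CD14*, while *PTPRC* had at most 9 counts and *CD68* at most 2. *CD14* passed the filter in the same way. The 5 mesenchymal markers, led by *COL1A1* and *VIM*, summed to between 5519 and 6391 CPM with DMSO and between 6300 and 6841 CPM with mocetinostat, with 1 called higher and 1 lower. *KLF4* and *KLF5* are known epithelial genes and *KLF2* an endothelial one, and the part of these markers in the *KLF* values was not tested. In bulk samples of 1 cell line, a change in the share of cells with a marker and a change in its RNA per cell cannot be told apart.

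Of the 10 *KLF* genes, 3 were upregulated and 0 were downregulated, where a call needed an adjusted p under 0.05 together with a log2 fold change beyond 1 in size (edgeR's quasi-likelihood test, Benjamini-Hochberg adjustment over the 13966 genes tested, the fit behind each adjusted p below for which no other setting is named). The upregulated genes were *KLF5*, *KLF13*, and *KLF4*. Among all genes tested, 20.2% were upregulated and 8.18% were downregulated by the same rule, so that the count of 3 in 10 stood not far above the share over all genes. All 10 members passed the filter on low counts. Without a minimum fold change, 7 of the 10 rose and 0 fell (0 fell also at an unadjusted p under 0.05 and with DESeq2), where 32.9% of all genes rose and 31.4% fell. In 6 of the 10, the treated and control values did not overlap and were higher with mocetinostat, where 33.7% of all genes were higher without overlap and 32.8% were lower without overlap. The members' median log2 fold change was 0.55, and they ranged from -0.17 to 3.74, beside a median of 0.00 over all genes tested. In what follows, "rose" and "fell" denote an adjusted p under 0.05, and "upregulated" and "downregulated" add the fold change limit.

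**Figure D1:**
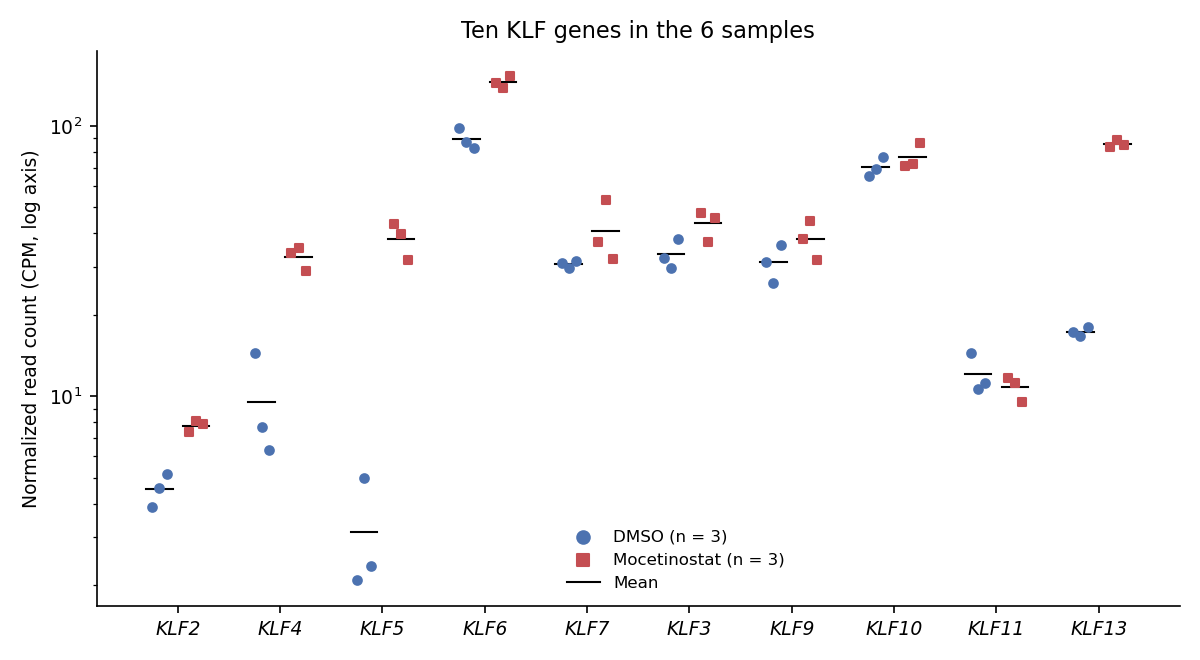
Normalized read counts (CPM, log axis) of the 10 *KLF* genes, with blue circles for the 3 DMSO samples, red squares for the 3 mocetinostat samples, and a black line for each mean. The red squares lie far above the blue circles for *KLF4*, *KLF5*, and *KLF13*, and the symbols intermingle for *KLF3*, *KLF9*, *KLF10*, and *KLF11*.

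*KLF4*, which encodes a reprogramming factor and regulator of epithelial barriers and of cartilage genes, lies on the minus strand at chr9:107484852-107490482 (GRCh38, ENSG00000136826). It measured 14.4, 7.70, and 6.34 CPM in the controls, listed from DMSO replicate 1 to 3 here and for each gene below, and 33.9, 35.3, and 29.0 CPM in the treated samples, in the same order. The lowest treated sample was above the highest control, but DMSO replicate 1 stood well above the other DMSO samples. The log2 fold change was 1.71 ± 0.21 (SE, n = 3 per condition, adjusted p = 7.38e-11). The spread between DMSO samples, a coefficient of variation of 45.4%, was larger than the 13.7% that counting error gives for 37 to 159 reads. Without DMSO replicate 1 the log2 fold change was 2.21, and without DMSO replicate 3 it was 1.45. When each library was thinned to the smallest total it was 2.40. *KLF4* was called upregulated under each of these settings.

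*KLF5*, a regulator of proliferation in intestinal crypts and smooth muscle, lies on the plus strand at chr13:73054976-73077541 (ENSG00000102554). It measured 2.08, 5.0, and 2.36 CPM with DMSO, from 23, 24, and 16 reads. With mocetinostat it measured 43.2, 39.7, and 31.9 CPM, from 218, 64, and 77 reads. Each treated sample exceeded every control by a wide margin, and among the controls replicate 2 was the high one. The means were 3.15 ± 1.61 and 38.3 ± 5.78 CPM, a 12.2-fold difference, and the log2 fold change of 3.74 ± 0.25 (adjusted p = 1.79e-22) was exceeded by 4.53% of all genes tested. *KLF5* had the lowest level of the 10 members per length with DMSO, so that its fold change rests on a small control value. Thinning all libraries to the smallest total gave 4.89, and leaving out a sample gave 3.44 to 4.09.

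Among the other members that bind acetyltransferases, *KLF6* is induced early after tissue injury and lies on the minus strand at chr10:3775996-3785281 (ENSG00000067082). It measured 98.6, 87.0, and 82.7 CPM with DMSO and 144, 138, and 153 CPM with mocetinostat. The conditions did not overlap, and the log2 fold change was 0.69 ± 0.10 (adjusted p = 1.25e-08), below the limit for a call. *KLF6* thus rose by a smaller factor, but from the highest normalized count in the family, and it rose with any sample left out.

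*KLF2*, a flow-responsive regulator of endothelial quiescence at chr19:16324826-16328685 on the plus strand (ENSG00000127528), measured 3.89, 4.58, and 5.16 CPM with DMSO and 7.34, 8.06, and 7.87 CPM with mocetinostat. All treated samples were above all controls, but from 43, 22, and 35 reads against 37, 13, and 19. The log2 fold change was 0.77 ± 0.34 (95% interval 0.10 to 1.44, adjusted p = 0.0423). This rise did not hold with a sample left out, whichever it was, where the adjusted p lay between 0.0524 and 0.155. With the replicate number as a block, *KLF2* did not pass either.

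*KLF7*, a regulator of neuronal outgrowth on the minus strand at chr2:207074137-207173856 (ENSG00000118263), measured 31.1, 29.8, and 31.5 CPM with DMSO and 37.3, 53.3, and 32.3 CPM with mocetinostat. The controls were close together, and mocetinostat replicate 2 stood above the other treated samples. The log2 fold change was 0.36 ± 0.16 (adjusted p = 0.0363), and without mocetinostat replicate 2 it was 0.17 (adjusted p = 0.371). Of the 6 fits that each left out a sample, *KLF7* rose in 1.

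*KLF3*, a repressor that recruits CtBP and acts in red cell and fat cell development, lies on the plus strand at chr4:38664197-38701517 (ENSG00000109787). It measured 32.5, 29.8, and 38.2 CPM with DMSO and 47.8, 37.2, and 45.6 CPM with mocetinostat. The lowest treated sample, replicate 2, was below the highest control, so the conditions overlapped. The log2 fold change was 0.40 ± 0.15 (adjusted p = 0.0131), and *KLF3* rose in 4 of the 6 fits that left out a sample. It did not pass without DMSO replicate 2 or without mocetinostat replicate 1.

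The 4 members that bind SIN3A differed among themselves. *KLF13*, known for activating the chemokine gene *CCL5* in T cells, lies on the plus strand at chr15:31326835-31435665 (ENSG00000169926). It measured 17.3, 16.7, and 18.0 CPM with DMSO and 83.5, 88.6, and 85.0 CPM with mocetinostat. Both conditions were tight and far apart, with coefficients of variation of 3.82% and 3.10%, below the 9.30% and 6.89% of counting error. The means were 17.3 ± 0.661 and 85.7 ± 2.65 CPM, a 4.95-fold difference (log2 fold change 2.30 ± 0.14, adjusted p = 1.03e-24). With each sample left out in turn, its log2 fold change stayed between 2.24 and 2.31, a narrower range than for *KLF4* or *KLF5*.

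The remaining SIN3A-binding members gave no call. *KLF9*, a target of glucocorticoid and thyroid hormone receptors on the minus strand at chr9:70384604-70414657 (ENSG00000119138), measured 31.3, 26.2, and 36.3 CPM with DMSO and 38.3, 44.6, and 31.9 CPM with mocetinostat. The conditions overlapped (log2 fold change 0.27 ± 0.16, adjusted p = 0.131). *KLF10*, named a TGF-β-inducible early gene, lies on the minus strand at chr8:102648784-102655725 (ENSG00000155090) and measured 65.0, 69.1, and 76.8 CPM with DMSO. With mocetinostat it measured 70.8, 72.5, and 86.2 CPM, which overlapped (0.12 ± 0.12, adjusted p = 0.393, 95% interval -0.12 to 0.35). *KLF11*, its close relative on the plus strand at chr2:10042849-10054836 (ENSG00000172059), measured 14.4, 10.6, and 11.2 CPM with DMSO and 11.7, 11.2, and 9.53 CPM with mocetinostat. These values overlapped too (-0.17 ± 0.25, adjusted p = 0.562, 95% interval -0.65 to 0.31). For *KLF10* a change by the factor that the call rule asks for lay outside the interval in either direction, and the same held for *KLF11*.

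**Figure D2:**
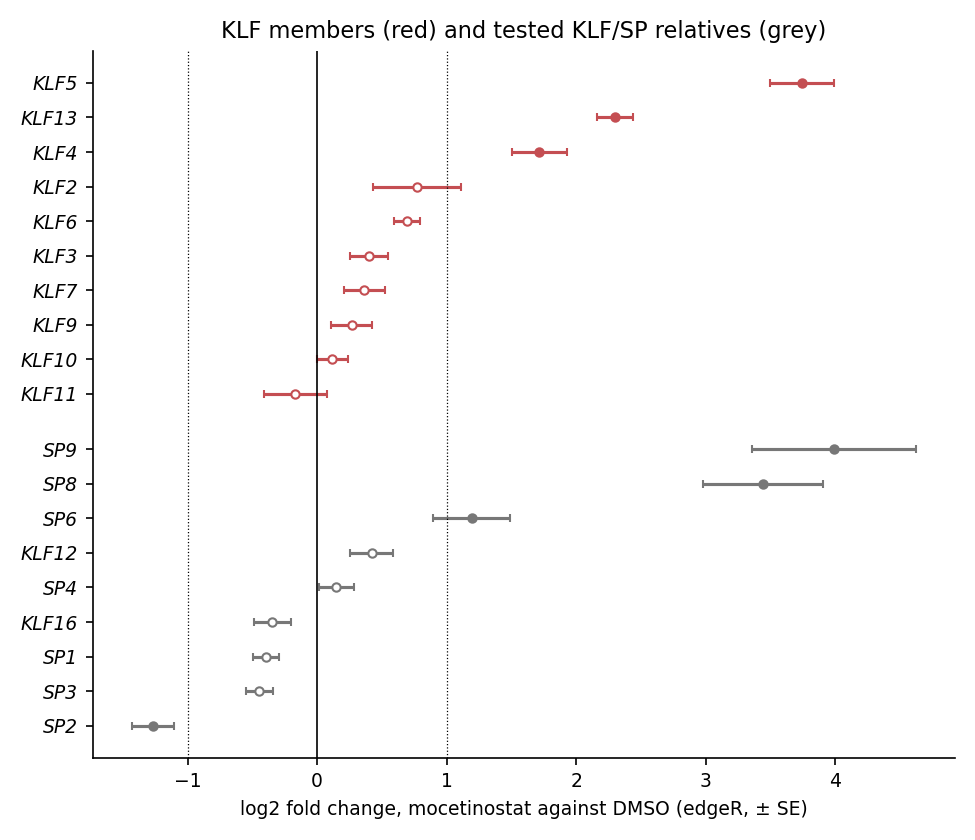
Log2 fold changes with their standard errors for the 10 *KLF* members (red) and the 9 *KLF* and *SP* relatives that could be tested (grey), with filled points for genes called and dotted lines at the fold change limit. *KLF5*, *KLF13*, and *KLF4* stand apart from the other members, and among the relatives *SP8* and *SP9* lie highest and *SP2* lowest.

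The sequences before the start sites of the 3 upregulated members, and of *KLF2*, which is often grouped with *KLF4*, are shown so that members with different fold changes can be compared at their start sites. Each holds the 250 bases before the RefSeq start site (GRCh38.p14), 5′ to 3′ in the direction of transcription, and 8 of the 10 members were matched in the RefSeq promoter table. Capitals mark matches, on either strand, to the GC box GGGCGG, the CACCC box CACCC, the CCAAT box CCAAT, and the MEF2 motif. They are *KLF4* at chr9:107489770-107490019 (minus strand), *KLF5* at chr13:73058755-73059004 (plus strand), *KLF13* at chr15:31326585-31326834 (plus strand), and *KLF2* at chr19:16324576-16324825 (plus strand).
KLF4: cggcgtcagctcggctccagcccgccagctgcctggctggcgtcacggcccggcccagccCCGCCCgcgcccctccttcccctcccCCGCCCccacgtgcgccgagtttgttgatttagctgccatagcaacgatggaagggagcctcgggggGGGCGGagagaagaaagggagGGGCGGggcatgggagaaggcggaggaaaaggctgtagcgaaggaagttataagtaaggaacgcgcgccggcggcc
KLF5: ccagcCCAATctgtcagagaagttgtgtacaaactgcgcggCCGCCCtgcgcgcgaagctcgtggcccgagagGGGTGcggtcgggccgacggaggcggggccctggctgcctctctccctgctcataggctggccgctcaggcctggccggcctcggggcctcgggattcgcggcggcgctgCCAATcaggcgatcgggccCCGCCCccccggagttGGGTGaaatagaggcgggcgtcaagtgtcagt
KLF13: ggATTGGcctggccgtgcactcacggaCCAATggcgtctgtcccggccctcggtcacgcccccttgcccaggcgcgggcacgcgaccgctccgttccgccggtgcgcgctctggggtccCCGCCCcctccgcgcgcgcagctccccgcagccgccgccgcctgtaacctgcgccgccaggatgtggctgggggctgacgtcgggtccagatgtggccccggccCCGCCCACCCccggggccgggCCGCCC
KLF2: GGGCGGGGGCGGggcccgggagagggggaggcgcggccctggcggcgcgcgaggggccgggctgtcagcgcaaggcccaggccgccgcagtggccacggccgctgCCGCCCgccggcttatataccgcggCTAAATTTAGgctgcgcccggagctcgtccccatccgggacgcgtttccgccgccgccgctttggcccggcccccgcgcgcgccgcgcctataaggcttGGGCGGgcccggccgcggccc

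All of these windows were GC-rich, with 69.2% G and C in *KLF4*, 70.8% in *KLF5*, 78.8% in *KLF13*, and 80.0% in *KLF2*, beside a median of 58.0% over 35116 promoters. *KLF4* and *KLF2* each held 4 GC boxes, *KLF13* held 3, and *KLF5* held 2. A GC box was found in 42.6% of all promoters, 24.3% held at least 2, and 7.63% held at least 4. *KLF5* held 2 CACCC boxes and *KLF13* held 1, which shares 1 base with a GC box, while the windows of *KLF4* and *KLF2* held 0 (54.7% of all promoters held at least 1). *KLF5* and *KLF13* each held 2 CCAAT boxes. Of all promoters, 32.0% held at least 1 and 9.53% held at least 2. The MEF2 motif matched in *KLF2* alone among the 8 members and in 2.80% of all promoters, and the TATA box TATAAA matched in none of the 8 and in 10.7% of all. Among members that were not called, *KLF6* (72.4% G and C) held 2 GC boxes, *KLF7* (58.0%) held 0, and *KLF9* (32.4%) held 0. *KLF6* and *KLF9* also held 2 CCAAT boxes each, and *KLF7* held 2 CACCC boxes. The *KLF11* window (78.8% G and C, 2 GC boxes) precedes a RefSeq start that lies 279 bases downstream of the canonical start in GENCODE, whereas the starts of the other 7 members coincide, so it is not a like window. Setting *KLF11* aside, high GC content and GC, CACCC, and CCAAT boxes were thus found in members that were upregulated and in members that were not. A match describes letters in a window and is not evidence of binding.

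Levels were compared between members as CPM per kilobase of annotated exon. With DMSO the order was *KLF10* (18.4 ± 1.56), *KLF6* (14.6 ± 1.34), *KLF9* (6.01 ± 0.963), *KLF3* (4.94 ± 0.633), *KLF7* (3.20 ± 0.0956), *KLF11* (2.63 ± 0.441), *KLF4* (2.59 ± 1.18), *KLF13* (1.84 ± 0.0701), *KLF2* (1.61 ± 0.225), and *KLF5* (0.855 ± 0.438). The first place depends on the length: by coding length *KLF6* held 34.6% of the summed level of the 10 genes with DMSO and *KLF10* held 16.1%, and by the longest coding transcript they held 29.7% and 29.3%. By exon length, the ranges of *KLF9* and *KLF3* overlapped, as did those of each pair of neighbors from *KLF7* down to *KLF2*. With mocetinostat the order was *KLF6* (23.6 ± 1.26), *KLF10* (20.02 ± 2.21), *KLF5* (10.4 ± 1.57), *KLF13* (9.09 ± 0.281), *KLF4* (8.94 ± 0.904), *KLF9* (7.36 ± 1.22), *KLF3* (6.43 ± 0.826), *KLF7* (4.26 ± 1.14), *KLF2* (2.75 ± 0.133), and *KLF11* (2.35 ± 0.245). *KLF6* and *KLF10* overlapped, as did neighbors from *KLF5* down to *KLF7*. *KLF5* thus moved from the last place to the third on this length, but by coding length its mocetinostat share was below those of *KLF3*, *KLF6*, *KLF7*, *KLF9*, *KLF10*, and *KLF13*, and by the longest coding transcript it was below that of *KLF13* too.

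The summed level of the 10 genes was 58.0, 54.0, and 58.0 CPM per kilobase with DMSO, and 95.2, 96.1, and 94.2 with mocetinostat. The means were 56.7 ± 2.31 and 95.2 ± 0.969, a 1.68-fold difference, and all treated samples were above all controls. *KLF4*, *KLF5*, and *KLF13* together held 9.33% ± 1.80 of the sum with DMSO and 29.9% ± 2.32 with mocetinostat, and they made up 60.1% of the gain in the summed level. *KLF6*, which was not called, made up another 23.4% of that gain because of its high level. The share of *KLF10* was 32.5% with DMSO and 21.1% with mocetinostat, while its own level did not pass the test. The shares depend on the length used. With coding length alone, *KLF13* held 6.59% and 18.8%, *KLF5* held 5.29% with mocetinostat, and *KLF10* held 16.1% and 10.1%. No test was run on these shares.

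**Figure D3:**
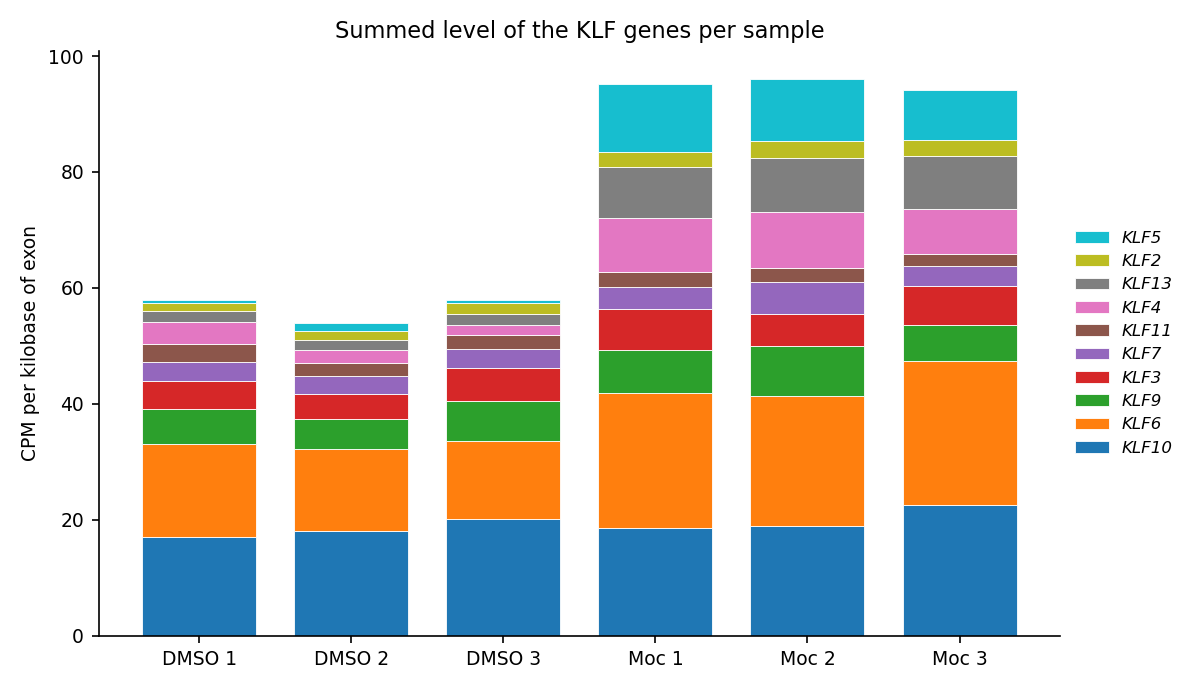
Stacked levels of the 10 *KLF* genes in each sample, in CPM per kilobase of exon, ordered from the bottom by their level with DMSO (Moc, mocetinostat). The bars rise from 56.7 to 95.2 on average, and the segments of *KLF4*, *KLF13*, and *KLF5* at the top widen.

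The samples did not deviate from their condition's mean in the same way for all members. On the log2 scale, DMSO replicate 1 was 0.67 above the DMSO mean for *KLF4* but 0.43 below it for *KLF5*, whereas DMSO replicate 2 was 0.70 above it for *KLF5* and 0.20 below it for *KLF4*. Mocetinostat replicate 2, the library with the fewest reads, was 0.41 above its mean for *KLF7* and 0.23 above it for *KLF9*, and 0.22 below it for *KLF3*. No library was thus high or low across the whole family. *KLF13* deviated the least, by -0.05 to 0.05.

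**Figure D4:**
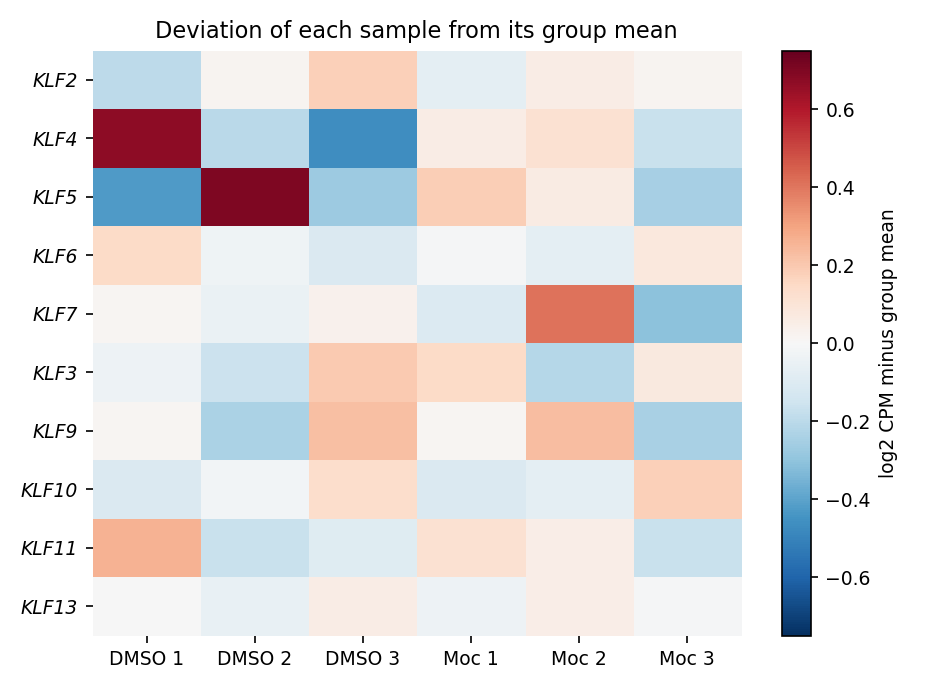
Deviation of each sample from the mean of its condition, in log2 CPM, for the 10 *KLF* genes (rows) and 6 samples (columns; Moc, mocetinostat), with red above and blue below the mean. The strongest colors are those of *KLF4* in DMSO replicate 1 and of *KLF5* in DMSO replicate 2, and *KLF13* is pale in each sample.

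The calls for the members were then set against the processing. *KLF4*, *KLF5*, *KLF6*, and *KLF13* rose in all of the 14 alternatives that test against no change, and *KLF4*, *KLF5*, and *KLF13* were also called by glmTreat, which tests against the fold change limit itself. The count of members that rose was 7 in the fit described above and ranged from 4, with DESeq2, without a filter, with thinned libraries, or without DMSO replicate 2 or mocetinostat replicate 1, to 9 with each library scaled to its *GAPDH* count. *GAPDH*, often taken as a control gene, itself fell by 0.53 on the log2 scale (adjusted p = 2.58e-12), and scaling to it raised the median of all genes by 0.54. Under that scaling *KLF2* (1.31) and *KLF6* (1.23) passed the call rule too. Relative to the shift of all genes, both remained below the limit.

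**Figure D5:**
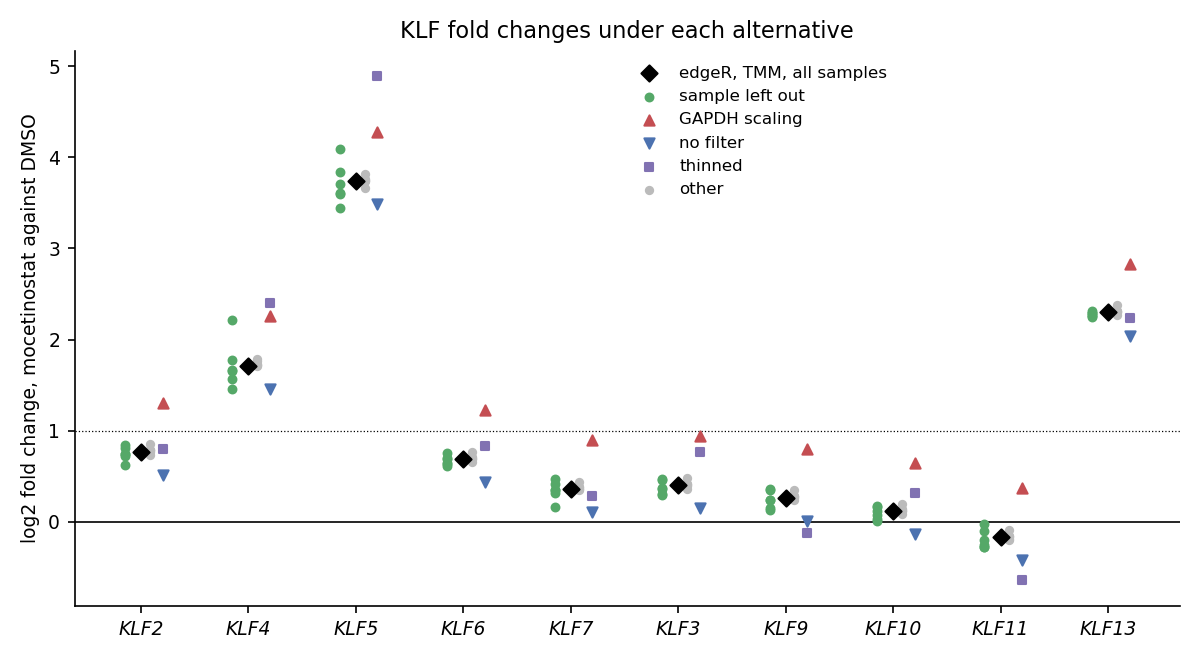
Log2 fold change of each *KLF* gene under every alternative, with black diamonds for the fit used in the text, green circles for fits without a sample, and other symbols for other scalings, filters, and depths (dotted line, the fold change limit). *GAPDH* scaling (red triangles) lifts each gene, and no alternative brings *KLF4*, *KLF5*, or *KLF13* below 1.

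Genes with the profile most like that of *KLF4* over the 6 samples were ranked by the root-mean-square difference of log2 CPM, after centering each gene on its own mean, among 13965 genes. The nearest were *RGMB-AS1* (0.15), *MITF* (0.16), *MKLN1-AS* (0.17), *FAT4* (0.18), and *ABCG4* (0.18). *MITF*, which encodes a transcription factor of pigment cells and lysosome genes, measured 13.0, 9.37, and 8.25 CPM with DMSO and 37.7, 42.8, and 31.1 CPM with mocetinostat. *FAT4*, an atypical cadherin, measured 11.4, 7.91, and 7.66 CPM and 33.1, 32.2, and 25.7 CPM. In both, DMSO replicate 1 was the highest control, as for *KLF4*. *RGMB-AS1* had 3 to 13 reads in the DMSO samples, and its place rests on these few reads. Within the family, the profile nearest to that of *KLF4* was that of *KLF13* (0.43), and *KLF5* was the farthest (1.04).

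The other *KLF* and *SP* genes share the DNA-binding domain. Of 17 such genes, 9 could be tested, and 3 were upregulated and 1 was downregulated, beside 20.2% and 8.18% of all genes. *SP8* and *SP9*, which act in limb and brain development, rose from at most 12 and 4 reads in a DMSO sample, with log2 fold changes of 3.44 ± 0.46 (adjusted p = 8.94e-10) and 3.99 ± 0.63 (adjusted p = 7.82e-08). Both passed the filter on low counts only through their mocetinostat samples, where they are high, so whether they are tested depends on that filter. *SP8* and *SP9* were called in each of the 13 alternatives that tested them, also without a filter (3.19 and 3.74). Neither was tested with at least 10 counts required in each sample or with thinned libraries. *SP6*, a regulator of tooth and skin development, measured 4.34, 5.62, and 6.19 CPM with DMSO and 15.1, 11.2, and 8.70 CPM with mocetinostat (1.19 ± 0.29, adjusted p = 0.000308). Without mocetinostat replicate 1 its log2 fold change was 0.87, and with thinned libraries it did not pass (adjusted p = 0.0859). *SP2* fell by 1.27 ± 0.16 on the log2 scale (adjusted p = 1.89e-10). It was not called under *GAPDH* scaling (-0.74), with thinned libraries (-0.95), or by glmTreat (adjusted p = 0.077). The widely expressed *SP1* and *SP3* also fell, with log2 fold changes of -0.39 ± 0.10 and -0.45 ± 0.10 (adjusted p = 0.000464 and 0.00015), though both turned positive under *GAPDH* scaling (0.14 and 0.09). Neither passed with thinned libraries (adjusted p = 0.107 for *SP1* and 0.0598 for *SP3*), and *SP4* did not pass (0.15, adjusted p = 0.343). *KLF12*, a CtBP-binding repressor, rose by 0.42 ± 0.17 (adjusted p = 0.0238), but only 0.23 (adjusted p = 0.357) was measured without mocetinostat replicate 1. It did not pass either without DMSO replicate 2 or 3, without mocetinostat replicate 2, or with DESeq2 (adjusted p = 0.176), thinned libraries, or no filter. *KLF16*, a SIN3A-binding member, had a log2 fold change of -0.35 ± 0.14 (adjusted p = 0.0305), which turned to 0.19 under *GAPDH* scaling and to 0.15 with thinned libraries. It did not pass with DESeq2 (adjusted p = 0.0813), with at least 10 counts required in each sample (0.0939), or in 4 of the 6 fits that left out a sample (without DMSO replicate 1 or 2 or mocetinostat replicate 1 or 3, adjusted p from 0.0524 to 0.0568). The 8 genes not tested were *KLF1*, *KLF8*, *KLF14*, *KLF15*, *KLF17*, *KLF18*, *SP5*, and *SP7*. *KLF15*, with 16, 2, and 2 reads with DMSO and 34, 3, and 9 with mocetinostat, had the most reads of these.

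Of 24 genes known to act on *KLF* transcription, 22 were tested, 4 were upregulated, and 3 were downregulated, beside 20.2% and 8.18% of all genes, and the median log2 fold change was 0.00. By the adjusted p alone, 9 rose and 7 fell, beside 32.9% and 31.4% of all genes, so that these counts were near the shares over all genes. The ERK5 cascade and its MEF2 targets drive *KLF2* and *KLF4* in endothelial cells, and none of its 5 tested genes was called. *MAPK7*, which encodes ERK5, measured 32.1, 34.6, and 39.2 CPM with DMSO and 25.0, 30.4, and 29.8 CPM with mocetinostat, without overlap (-0.34 ± 0.16, adjusted p = 0.0589). Named after their values were seen, *MAP3K3* fell (-0.48 ± 0.13, adjusted p = 0.00108) and *MEF2A* rose (0.34 ± 0.12, adjusted p = 0.0114), both without overlap. *MAP2K5* (-0.38, adjusted p = 0.077) and *MEF2D* (-0.01, adjusted p = 0.949) did not pass. The CCM complex restrains that cascade, and of its 4 genes *KRIT1* alone was called, as downregulated (-1.10 ± 0.36, adjusted p = 0.00642). Its conditions overlapped, at 8.96, 9.58, and 6.34 CPM against 2.38, 6.82, and 4.14 CPM, and without mocetinostat replicate 1 the value was -0.66 (adjusted p = 0.164). It did not pass either with DESeq2 (-1.05, adjusted p = 0.0801), with thinned libraries, or under *GAPDH* scaling. Chosen after their values were seen, *HEG1*, which encodes the receptor of that complex, rose by 0.87 ± 0.07 (adjusted p = 8.76e-18), and *CCM2* rose by 0.47 ± 0.13 (adjusted p = 0.000863), both without overlap, though *CCM2* did not pass with thinned libraries or without a filter, while *PDCD10* did not pass (-0.04, adjusted p = 0.809).

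*FOXO1*, an activator of *KLF2* and *KLF4* in several cell types, measured 2.71, 3.33, and 3.24 CPM with DMSO and 17.4, 8.06, and 20.7 CPM with mocetinostat (2.39 ± 0.31, adjusted p = 3.63e-10). Its treated samples were all higher but scattered, with replicate 2 the lowest. The study instead describes *FOXO1* as regulated by KLF4, and it reports a rise of FOXO1 with mocetinostat in OA chondrocytes and mouse cartilage. Which order holds in these cells was not tested. In the TGF-β pathway, which induces *KLF10* and *KLF11*, the receptor gene *TGFBR2* was upregulated (1.75 ± 0.11, adjusted p = 3.16e-23) and the signal transducer *SMAD3* was downregulated (-1.07 ± 0.08, adjusted p = 1.08e-18), while *KLF10* and *KLF11* did not pass the test. Among hormone receptors that induce *KLF9*, the glucocorticoid receptor gene *NR3C1* was downregulated (-1.03 ± 0.10, adjusted p = 7.54e-14). Without mocetinostat replicate 3, *SMAD3* (-0.998) and *NR3C1* (-0.96) were just inside the limit. With at least 10 counts required in each sample both lost the call as well (-0.99 and -0.95). Neither was called under *GAPDH* scaling (-0.54 and -0.49) or by glmTreat (adjusted p = 0.322 and 0.661). *NR3C1* was also not called with thinned libraries (-0.83). The mineralocorticoid receptor gene *NR3C2* had 2, 1, and 3 reads with DMSO and 61, 17, and 23 with mocetinostat, with a log2 fold change of 5.23 ± 0.53 (adjusted p = 7.2e-14, 95% interval 4.18 to 6.27). With thinned libraries the value was 3.615 (adjusted p = 0.00144). *NR3C2* passed the filter on low counts only through its mocetinostat samples. With at least 10 counts required in each sample it was not tested. The thyroid hormone receptor gene *THRB* had 3, 2, and 6 reads with DMSO and 60, 15, and 13 with mocetinostat (4.15 ± 0.51, adjusted p = 8.34e-11). *THRB* entered the test in the same way and was not tested under that minimum either. Whether *NR3C2* and *THRB* are tested thus depends on the filter. Both were called in each of the 14 alternatives that tested them, also without a filter (4.98 and 3.89).

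The proteins that KLFs recruit or that degrade them gave 17 tested genes, of which 0 were upregulated (0 also with DESeq2) and 3 downregulated, beside 20.2% and 8.18% of all genes, and whose median log2 fold change was -0.27. By the adjusted p alone, 3 of the 17 rose and 9 fell, where 32.9% and 31.4% of all genes did. *CREBBP* and *EP300* encode the acetyltransferases CBP and p300, coactivators of KLF2, KLF4, and KLF5. *CREBBP* measured 330, 384, and 357 CPM with DMSO and 133, 135, and 139 CPM with mocetinostat (-1.40 ± 0.09, adjusted p = 9.96e-24). *EP300* measured 209, 248, and 231 CPM and 109, 131, and 106 CPM. It lay at the limit itself (-1.003 ± 0.096, adjusted p = 5.49e-15), and 10 alternatives gave no call. Of these, *GAPDH* scaling gave -0.47, thinning gave -0.86, and glmTreat gave an adjusted p of 0.841, while the other 7 gave values from -0.99 to -0.92. *SIAH1*, a ubiquitin ligase gene, was downregulated too (-1.02 ± 0.22, adjusted p = 5.34e-05), but not without DMSO replicate 1 (-0.88) or mocetinostat replicate 2 (-0.93) or with at least 10 counts required in each sample (-0.94), and under *GAPDH* scaling it did not pass (-0.48, adjusted p = 0.0639).

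The corepressor genes *CTBP1* (-0.98 ± 0.11, adjusted p = 6.33e-13), *CTBP2* (-0.48 ± 0.12, adjusted p = 0.000221), and *SIN3A* (-0.27 ± 0.10, adjusted p = 0.0101) fell without a call, and *CTBP2* (0.05) and *SIN3A* (0.26, adjusted p = 0.0239) turned positive under *GAPDH* scaling. *SIN3A* did not pass without mocetinostat replicate 1 (adjusted p = 0.0952), with thinned libraries (0.126), or with at least 10 counts required in each sample (0.0655). *CTBP1* stood just inside the limit and was called downregulated by DESeq2 (-1.02) and without a filter (-1.23). It was also called without DMSO replicate 1 (-1.12) and without mocetinostat replicate 2 (-1.03), whereas *GAPDH* scaling gave -0.45. The class I HDAC genes, whose products mocetinostat inhibits, gave small values. *HDAC1* measured 127, 129, and 119 CPM with DMSO and 151, 131, and 159 CPM with mocetinostat (0.24 ± 0.10, adjusted p = 0.0243), but it did not pass with DESeq2 (adjusted p = 0.114), without a filter, or in 4 of the 6 fits that left out a sample (without DMSO replicate 2 or 3 or mocetinostat replicate 1 or 3, adjusted p up to 0.181). *HDAC3* rose by 0.44 ± 0.12 (adjusted p = 0.0013), but did not pass without a filter (0.19, adjusted p = 0.322), and *HDAC2* did not pass (0.13 ± 0.08, adjusted p = 0.154).

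Genes that KLF proteins are known to switch on or off, or that the study names as such, made a list of 21, of which 16 were tested. It includes cartilage and tendon genes that the study names for this treatment, so that their direction is not independent evidence. Of the 16, 4 were upregulated and 1 was downregulated, beside 20.2% and 8.18% of all genes. The median log2 fold change was 0.58, and by the adjusted p alone 10 rose and 2 fell, beside 32.9% and 31.4%. *CDKN1A*, which encodes the cell cycle inhibitor p21 and is a direct KLF4 and KLF6 target, measured 52.9, 63.1, and 58.2 CPM with DMSO and 400, 457, and 401 CPM with mocetinostat (2.86 ± 0.09, adjusted p = 4.06e-40). *COL2A1* and *ACAN*, which encode the main collagen and proteoglycan of cartilage, rose by 3.70 ± 0.27 (adjusted p = 2.22e-20) and 2.75 ± 0.23 (adjusted p = 2.06e-17) on the log2 scale. *TNXB*, a tendon matrix gene, rose by 2.48 ± 0.54 (adjusted p = 5.48e-05) from 5 to 7 reads in the DMSO samples. It passed the filter on low counts only through its mocetinostat samples. *VCAM1*, an adhesion gene that KLF2 and KLF4 repress in endothelium, measured 307, 333, and 342 CPM with DMSO and 22.8, 27.3, and 33.6 CPM with mocetinostat (-3.60 ± 0.12, adjusted p = 2.43e-40). Chosen after their values were seen, *IL6*, a cytokine gene that the study names among those KLF4 suppresses, rose by 0.39 ± 0.13 (adjusted p = 0.00887), but not without mocetinostat replicate 3 (adjusted p = 0.0696), with DESeq2 (adjusted p = 0.0821), or without a filter. The aggrecanase gene *ADAMTS5*, named with it by the study, did not pass (-0.41 ± 0.30, adjusted p = 0.238), and without mocetinostat replicate 1 it fell (-0.90, adjusted p = 0.0486). By qPCR, the study reports that mocetinostat itself lowered *IL6* and *ADAMTS5* in primary OA chondrocytes, with and without an inflammatory stimulus. Those cells were given a higher dose than the unstimulated TC28a2 cells here, so the values are not a like comparison. *CCL5*, the KLF13 target, had at most 5 reads in any sample and was not tested.

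Reads of genes on the opposite strand could enter the counts of some members, because the use of strand in the counting is not given in the sources used here. Exons of other genes on the opposite strand covered 9.75% of the exon bases of *KLF4*, 9.06% of those of *KLF11*, 3.91% of those of *KLF3*, and 0.832% of those of *KLF7* in GENCODE release 44, and no member shared exon bases with a gene on its own strand. The opposite gene at *KLF3*, *KLF3-AS1*, had at most 6 reads in any sample, and *KLF7-IT1*, a noncoding gene named after its host *KLF7*, had at most 10. *KLF2*, *KLF5*, *KLF6*, *KLF9*, *KLF10*, and *KLF13* had no such overlap.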

How the data were processed

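TC28a2 cells were profiled by RNA-Seq after 24 hours with 2 μM mocetinostat or DMSO (3 samples each, grouped by their labels). The authors deposited whole raw counts of reads per gene, without normalization, in a table of 60623 genes. According to the study's methods and the submitters' processing notes, ribosomal reads were removed and single reads were aligned to GRCh38 with STAR 2.6.1d and assigned with featureCounts 1.6.4. Handling of strand and of reads with several matches is not given in the sources used here. Adapter trimming and the rest of the authors' processing was taken as deposited.

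From these counts, edgeR 4.0.16 (R 4.3.3, limma 3.58.1) computed TMM factors, kept 13966 genes with filterByExpr (minimum count 10), and tested mocetinostat against DMSO with treatment as the only term by its quasi-likelihood test with Benjamini-Hochberg adjustment. Some genes low with DMSO passed the filter only through their mocetinostat samples, among them *SP8*, *SP9*, *NR3C2*, *THRB*, *TNXB*, *EPCAM*, *CDH1*, *COMP*, *PECAM1*, *VWF*, and *CD14*. Calls required an adjusted p under 0.05 together with a log2 fold change beyond 1 in size. Standard errors are the log2 fold change divided by the square root of F, and 95% intervals are normal approximations from them. CPM used the TMM factors. The scripts were tested on simulated data with known changes. Totals ranged from 1619344 to 11031132 counts. Counting errors cover sampling of reads only, as the study's methods describe no use of molecular identifiers. Pairs of replicates differed by more than read sampling (chi-square per degree of freedom from 1.96 to 7.19), so no pair looked like a library deposited again, which does not show that samples were independent. Positions, exon lengths, and overlaps are from GENCODE release 44, which matched 99.5% of the genes by identifier and is not the release the authors counted on. Promoters are from RefSeq (GRCh38.p14). Summaries and figures were made in Python 3.11.15 (pandas 2.3.3, matplotlib 3.10.9).

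The members and lists were chosen with earlier results of these data known. All members, each tested *KLF* and *SP* relative, each called gene of the other lists (at most 8 per list), 10 genes named in advance, the 5 genes nearest in profile to *KLF4*, and noncoding genes named after a member are named. *CCL5*, *HEG1*, *CCM2*, *PDCD10*, *MAP3K3*, *MEF2A*, *MAP2K5*, *MEF2D*, *IL6*, *ADAMTS5*, and the marker genes are named beside them. The alternatives were DESeq2 1.42.0, RLE factors, library size only, *GAPDH* scaling, no filter, at least 10 counts in every sample, glmTreat, the replicate block, thinned libraries, each sample left out, other lengths, and all *KLF* genes of the table.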

Additional observations from a re-analysis of the deposited data

How the results depend on the processing

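The count of upregulated *KLF* members was 3 and that of downregulated members 0 under each alternative, except 5 upregulated under *GAPDH* scaling, which shifted the median of all genes by 0.54. Of 150 comparisons of a member's log2 fold change with an alternative, 145 kept direction and call, 2 gained a call, and 3 changed sign without passing a test: *KLF9* with thinned libraries (-0.12), *KLF10* without a filter (-0.13), and *KLF11* under *GAPDH* scaling (0.38). Removing the filter shifted the median by -0.25. Upregulated relatives numbered 3 in the fit described above, 6 with DESeq2, 5 without a filter, 1 with at least 10 counts in every sample, 0 with thinned libraries, 2 without mocetinostat replicate 1, 3 without mocetinostat replicate 3, and 6 without any other single sample (from 2 to 6), as the number tested also varied. Downregulated relatives numbered 1, and 0 under *GAPDH* scaling, glmTreat, or thinning. Upstream genes called higher numbered 4, with 7 under *GAPDH* scaling and 2 under the minimum of 10 counts per sample. Those called lower numbered 3, with 0 under *GAPDH* scaling and glmTreat, 1 under that minimum or thinning, and from 1, without mocetinostat replicate 3, to 3 with a sample left out. Partners called lower numbered 3, with 0 under *GAPDH* scaling and 1 with glmTreat or the minimum of 10 counts in every sample. The count also moved under other settings, as *EP300* lost its call in 10 alternatives and *SIAH1* in 5, while *CTBP1* gained one in 4. KLF-regulated genes called higher numbered 4, with 7 by DESeq2 or without a filter and 9 under *GAPDH* scaling. Of the 4, *COL2A1* and *TNXB* were not tested with at least 10 counts in every sample, nor *TNXB* with thinned libraries. Sign changes of other genes were *KLF16* (0.19 under *GAPDH* scaling, 0.15 thinned), *SP1* (0.14), *ADAMTS5* (0.14), *SP3* (0.087), *MAPK7* (0.19), *CTBP2* (0.054), and *SIN3A* (0.26) under *GAPDH* scaling, and *SP4* (-0.10), *HDAC1* (-0.010), and *HDAC2* (-0.12) without a filter. The cause was not tested. Same-numbered samples did not deviate together (correlations of 0.01, 0.01, and -0.02 over 13966 genes), so replicate numbers were not treated as pairs. With the replicate block, 3 members were upregulated, 6 rose, and *KLF2* was the one lost. With the block, all genes gave 2798 calls higher and 1133 lower, beside 2827 and 1142 without it. The shares of the summed level changed with the length: the direction of change was kept except for *KLF2* by coding or transcript length and *KLF6* when all *KLF* genes were summed. Depth limits *KLF2*, with 13 to 43 reads per sample.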
